A study of Mus musculus with 12 samples.

Results

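The response of cells in which a Sox2 transgene was no longer induced was set against that of wild-type cells given the same WNT signal. The comparison held the 3 SOX2-OFF and the 3 CEpiLC libraries, 6 of the 12 RNA sequencing libraries of the series, taken by their labels, and covered every gene in the table. All cultures were mouse embryonic stem cells differentiated for 72 h with bFGF at 10 ng/ml and LGK974 at 5 µM, an inhibitor that stops cells from secreting their own WNT ligands. Both groups also received CHIR99021 from day 2 to day 3, which inhibits GSK3 and so activates the WNT pathway inside the cell. CEpiLC (caudal epiblast-like cells) were wild type, by the study's methods the HM1 line with the rtTA activator at the Rosa26 locus and with its own Sox2 intact. SOX2-OFF cells came from SOX2 TetON, made from that line by placing a doxycycline-dependent Sox2 transgene in the Hprt locus, cutting endogenous Sox2 and picking a clone, and doxycycline was left out during differentiation. The line therefore differed as well as SOX2, the line had passed through drug selection and 2i medium, and it had been kept with doxycycline until differentiation. Embryonic stem cells of both lines had been grown on mouse fibroblast feeders, which were depleted by plating. The remaining groups are given as reference values. EpiLC were wild type without CHIR99021, and SOX2-ON were SOX2 TetON with CHIR99021 and doxycycline at 1 µg/ml. SOX2-OFF against SOX2-ON was also tested, a comparison within the line that shares its SOX2-OFF libraries with the main one.

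SOX2 belongs to the SOXB1 transcription factors, with SOX1 and SOX3, and holds epiblast cells in a pluripotent or neural-competent state. During gastrulation, WNT, Nodal and BMP signals turn epiblast into primitive streak. The anterior and early streak yields endoderm and anterior mesoderm under Nodal, whereas the caudal epiblast next to the streak yields spinal cord and somites later and activates Cdx and posterior Hox genes under WNT and FGF. Visceral and parietal endoderm are extraembryonic, cover the embryo, and share many factors with embryonic endoderm.

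The site at which endogenous Sox2 was cut is shown because it defines the line: the endogenous gene is cut there and the transgene is not meant to be. Apart from a cloning overhang of 4 bases, the oligo of the guide matched 17 bases of the Sox2 coding sequence (coding bases 36 to 52, in the only coding exon of the gene), at chr3:34650451-34650467 on the plus strand of mm10. The last of the 18 bases after the overhang did not match, so by the oligo alone the end of the target is uncertain by 1 base. The stretch of coding bases 31 to 72 (chr3:34650446-34650487, plus strand) is given 5′ to 3′, with the 3 bases that follow the matched stretch in capitals.
Sox2 coding stretch: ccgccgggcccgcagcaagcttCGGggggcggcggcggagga
The transgene carries the silent change G54A, counted from the first coding base, and this base is the second of the capitals. By the study's methods the change was made to remove the protospacer adjacent motif of this guide.

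Sox2 (chromosome 3) was examined next. Its level was 13.7, 9.66 and 7.78 TPM in CEpiLC, 21.2, 15.9 and 12.3 in SOX2-OFF, as against 215, 173 and 174 in SOX2-ON and 171, 119 and 121 in EpiLC. TPM are transcript levels scaled for gene length and library size. The SOX2-OFF and CEpiLC values overlapped at a low level, and both lay far below SOX2-ON. Counts of Sox2 include transcripts of the cut endogenous gene, so they do not measure SOX2 protein. The difference of 0.65 on the log2 scale (SE 0.24, adjusted p 0.0367) was not called by limma-voom or without CEpiLC replicate 2 or 3 or SOX2-OFF replicate 1 or 2. Throughout, log2 fold changes are SOX2-OFF minus CEpiLC, adjusted p values are those of the edgeR quasi-likelihood fit, adjusted by Benjamini-Hochberg over all genes tested, and genes were called where that value was 0.05 or less. Hprt, a purine salvage enzyme and the locus of the transgene, read 1.57, 2 and 1.35 TPM in CEpiLC and 13, 17.8 and 14.6 in SOX2-OFF, with no overlap (log2 fold change 3.20, SE 0.24, adjusted p 5.7e-07). By the study's methods integrants at this locus were selected in medium with hypoxanthine, aminopterin and thymidine. The value is therefore a check of the line and is not read as a response.

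The libraries held 10408252 to 27337740 expected counts, and 14196 of 24736 genes passed the filter on low counts and were tested. Log2 CPM of replicates correlated across genes with r from 0.984 to 0.992, a description since genes are not independent. The CEpiLC replicate 3 library, the smallest, stood apart in presomitic genes, as given with them. SOX2-OFF replicate 3 was likewise the highest of its group in their summed level. The labels call the replicates biological. Of the genes tested, 3353 (23.6%) were called higher in SOX2-OFF and 3532 (24.9%) lower. The counts of the gene lists below are to be read against these shares. A further condition of a log2 fold change over 1 left 806 genes higher (5.68%) and 1136 lower (8.0%), and values of the groups did not overlap in 7849 genes (55.3%). Within the SOX2 TetON line, 1996 genes (14.1%) were higher in SOX2-OFF than in SOX2-ON and 2095 (14.8%) lower. In bulk libraries, fewer cells of a type and less RNA per cell cannot be told apart.

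Genes on 3 chromosomes moved as blocks. Among genes with a mean log2 CPM of at least 4, the median was higher in SOX2-OFF by 0.57 (log2) on chromosome 6 and by 0.60 on chromosome 8. It was lower by 0.52 on chromosome 11, whereas on the other chromosomes the difference was within 0.07 of 0. Over all tested genes of chromosomes 6, 8 and 11 the median log2 fold changes were 0.51, 0.59 and -0.56. The 3 SOX2-OFF medians lay beyond the 3 CEpiLC medians on each of these chromosomes (exact permutation p 0.1, two-sided, the smallest that the 20 splits allow). The same p was reached on 8 further chromosomes, where the medians differed by 0.07 or less, so the size and not the p sets chromosomes 6, 8 and 11 apart. Their shift was known from these data before the test, so the p is a description only. SOX2-ON medians stood with SOX2-OFF, and EpiLC medians with CEpiLC. Of 1429 tested genes on chromosomes 6 and 8, 948 (66.3%) were called higher and 111 lower, and of 1164 on chromosome 11, 835 (71.7%) were called lower and 43 higher. Elsewhere 20.4% were higher and 22.3% lower. Values with the block (the chromosome median) removed are given beside genes whose call they alter and beside lists whose counts they alter.

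**Figure D1:**
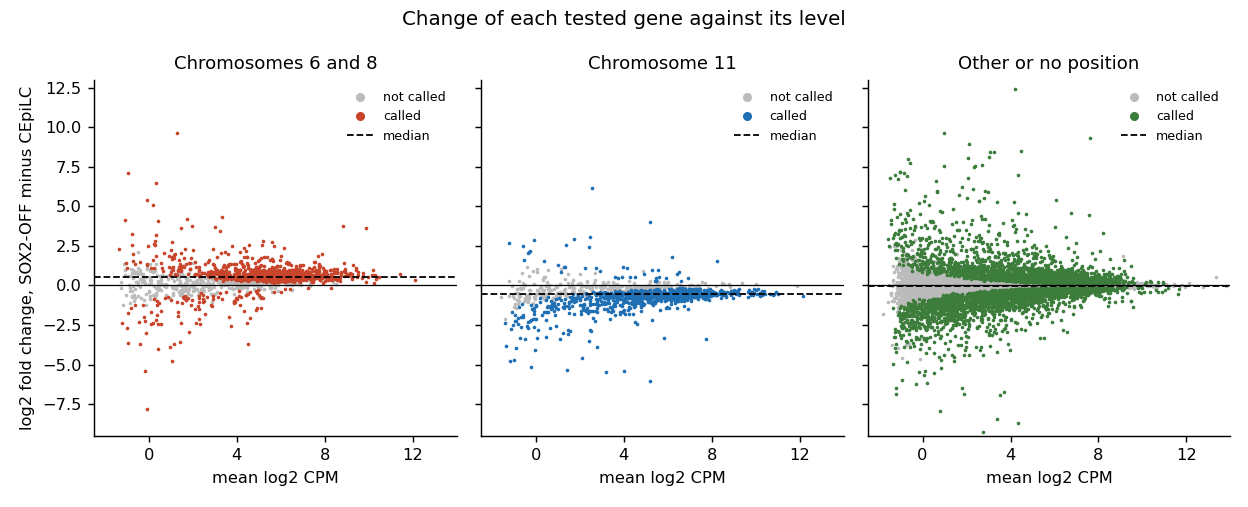
Log2 fold change (SOX2-OFF minus CEpiLC) of each of the 14196 tested genes against its mean log2 CPM, in 3 panels by chromosome, with called genes in colour and the panel median as a dashed line. The dashed line sits at 0.55 for chromosomes 6 and 8, at -0.56 for chromosome 11 and at -0.01 for all others.

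The named marker genes separated the groups. Sox3 (X:60891366-60893430, GRCm38.p6) read 26.9, 22.1 and 12.8 TPM in CEpiLC and 3.81, 3.13 and 2.2 in SOX2-OFF. The groups did not overlap (log2 fold change -2.73, SE 0.29, adjusted p 6.07e-06). SOX2-ON stood between them at 11.3, 10.4 and 6.53, so that SOX2-OFF had the lowest Sox3 of the 4 groups. Eomes (9:118478186-118486132), a T-box factor of early streak, endoderm and trophoblast, read 1.44, 4.73 and 6.59 TPM in CEpiLC and 43.5, 34.1 and 60.1 in SOX2-OFF (log2 fold change 3.55, SE 0.37, adjusted p 6.41e-06). Of the remaining SOXB members, Sox1 was lower (-3.57, adjusted p 0.0037), Sox14 higher (1.97, adjusted p 0.00212) and Sox21 not called (1.07, adjusted p 0.22) except in a fit of only the 6 libraries, all at levels of at most 2.11 TPM in both groups. Sox21 stood at 93.6 to 116 TPM in SOX2-ON.

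**Figure D2:**
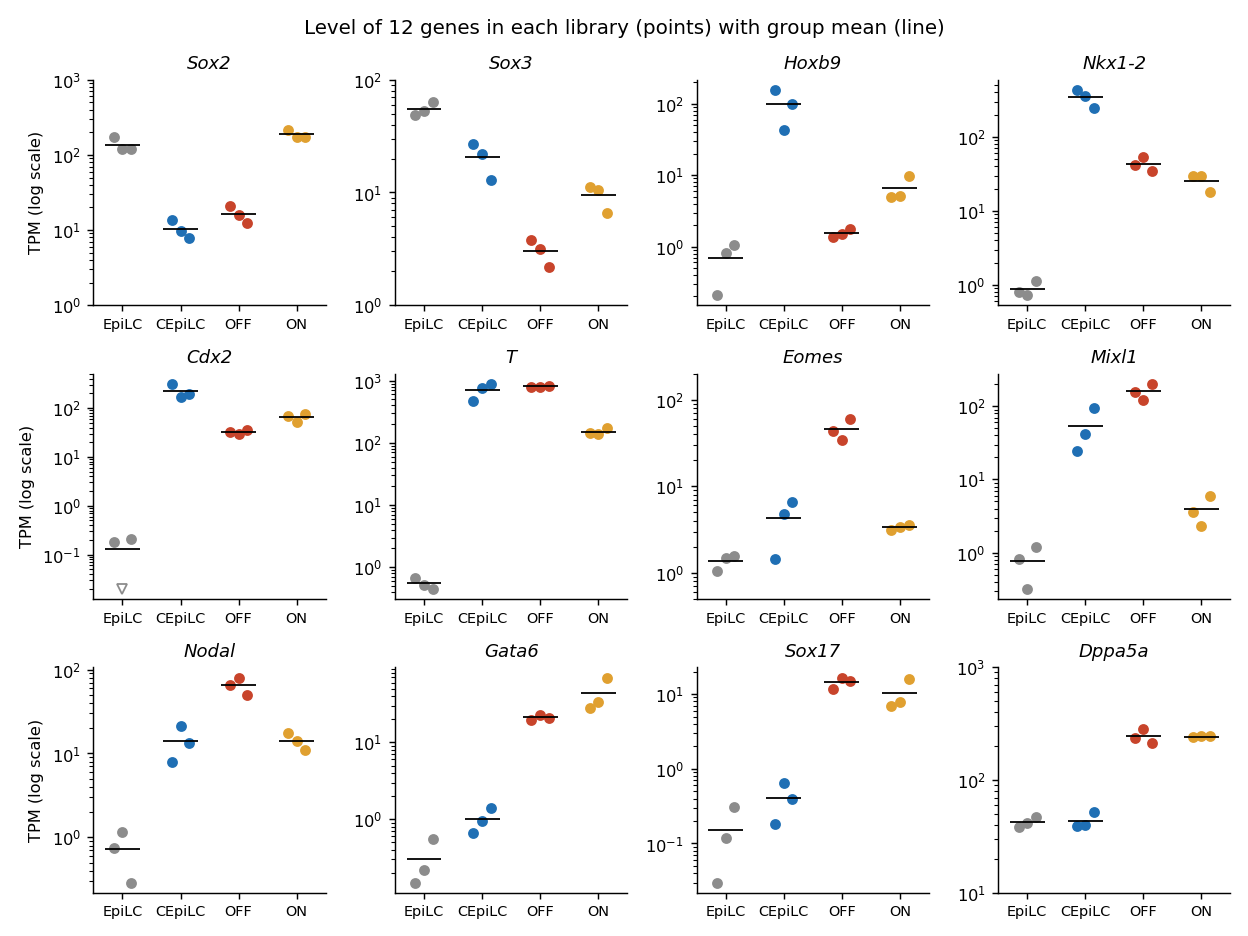
TPM of 12 genes in each of the 12 libraries, on log axes that differ between panels, with a line at each group mean and an open triangle for a library listed at 0 (Cdx2 in 1 EpiLC library). SOX2-OFF (red) lies below CEpiLC (blue) in Sox3, Hoxb9, Nkx1-2 and Cdx2, overlaps it in Sox2 and T, and lies above it in Eomes, Mixl1, Nodal, Gata6, Sox17 and Dppa5a.

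Caudal epiblast genes were mostly lower in SOX2-OFF than in CEpiLC. Of 22 listed genes, all tested, 15 were called lower and 1 higher, with a median log2 fold change of -1.24, against -0.01 over all genes tested. Nkx1-2, a homeobox gene of the caudal epiblast, read 432, 356 and 244 TPM in CEpiLC and 42.2, 52.9 and 34.3 in SOX2-OFF. Cdx2, a homeobox factor upstream of posterior Hox genes, read 314, 169 and 192 against 31.9, 29.2 and 35.9. Both genes lost about the same share, at -2.97 (SE 0.22, adjusted p 4.44e-07) and -2.79 (SE 0.22, adjusted p 7.34e-07). Cdx4, its relative on chromosome X, fell by 3.12 (SE 0.43, adjusted p 5.45e-05), whereas Cdx1 gave -0.29 (adjusted p 0.291) and was called only without CEpiLC replicate 2. The secreted WNT ligands of this region fell as well. Wnt3a read 51.8, 48.1 and 75.9 TPM in CEpiLC and 9.52, 12.9 and 9.68 in SOX2-OFF, and Wnt8a 270, 264 and 128 against 22.1, 24.8 and 17.4. No value of either gene overlapped between groups, and Wnt3a, on chromosome 11, stood at -1.89 with the block removed (-2.43 before). Grsf1, an RNA-binding protein and the most abundant of the list, read 1503, 1142 and 1554 TPM against 542, 525 and 576 (-1.34, SE 0.10, adjusted p 5.7e-07).

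Several caudal genes were not called. T, the T-box factor of the whole streak, read 474, 768 and 892 TPM in CEpiLC and 804, 792 and 830 in SOX2-OFF (log2 fold change 0.20, SE 0.17, adjusted p 0.335), and was called only without CEpiLC replicate 3. Sp5, a direct WNT target, gave -0.40 (SE 0.19, adjusted p 0.112) and Evx1 0.49 (SE 0.27, adjusted p 0.15), both with overlapping values, and both were called under a replicate block and without CEpiLC replicate 2 (Sp5) or 3 (Evx1). The member called higher was Tbx4 (0.86, SE 0.29, adjusted p 0.0264), whose call was lost by limma-voom and without CEpiLC replicate 1 or 3 or SOX2-OFF replicate 3. Within the line the counts were different: 11 members were higher in SOX2-OFF than in SOX2-ON and 6 lower. T exceeded SOX2-ON by 2.47 (SE 0.18, adjusted p 7.42e-07) and Wnt3a by 3.63 (SE 0.26, adjusted p 8.09e-07). Cdx2 was below SOX2-ON by -0.97 (SE 0.22, adjusted p 0.00481), where it read 70.3, 51.8 and 74.9 TPM. The summed level of the list was 3998 to 4475 TPM in CEpiLC, 2267 to 2466 in SOX2-OFF, 1057 to 1114 in SOX2-ON and 284 to 298 in EpiLC.

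A pair of further regulators on the list fell far. Hes3, a HES repressor of progenitors, read 21.4, 13 and 1.8 TPM in CEpiLC and 0, 0.25 and 0 in SOX2-OFF. The groups did not overlap, though CEpiLC itself spread widely, and the change of -6.87 (SE 1.01) ran from -10.58 without SOX2-OFF replicate 2 to -6.15 without CEpiLC replicate 1, with -6.26 without SOX2-OFF replicate 1. Gbx2, a homeobox gene of the posterior neural plate, read 158, 122 and 101 TPM against 20.5, 20.9 and 35.2 (-2.32, SE 0.25, adjusted p 6.53e-06).

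Hox genes lie in 4 clusters and are numbered so that higher paralogue groups are expressed more posteriorly. Of 39 listed genes 25 passed the filter on low counts, 17 of them lower and 2 higher. The median fall was deeper in middle than in anterior paralogue groups. In paralogue groups 1 to 5, 11 of 13 genes were lower and 0 higher, with a median of -1.73. In groups 6 to 9, 6 of 9 were lower and 0 higher, with a median of -3.46. Of 3 tested genes of groups 10 to 13, 2 were higher and 0 lower.

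Hoxb9 (11:96271330-96276595), at the posterior end of the tested HoxB genes, read 156, 43 and 98.7 TPM in CEpiLC and 1.38, 1.49 and 1.78 in SOX2-OFF. SOX2-OFF values were close to the 0.21 to 1.05 TPM of EpiLC, which never saw CHIR99021, and below the 4.93 to 9.6 of SOX2-ON. The log2 fold change was -6.02 (SE 0.51, adjusted p 1.1e-06), and -5.47 with the block of chromosome 11 removed. Hoxb8 (59.8, 23.2 and 44.6 against 1.04, 0.91 and 1.01 TPM) fell by 5.42 on the log2 scale (SE 0.44, adjusted p 8.14e-07). Hoxb1, at the anterior end, behaved otherwise. It read 84.2, 119 and 283 TPM in CEpiLC and 75.1, 75.6 and 128 in SOX2-OFF, and the difference was not called (-0.78, SE 0.35, adjusted p 0.0819), except under a replicate block and without CEpiLC replicate 1 or SOX2-OFF replicate 3. Without CEpiLC replicate 3 it stood at -0.11. In SOX2-ON, Hoxb1 read 1.6, 1.78 and 2.45 TPM. The 9 tested HoxB genes, 8 of them lower, span 96271330 to 96368254 on chromosome 11 (GRCm38.p6).

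Within the line the direction differed by paralogue group. SOX2-OFF exceeded SOX2-ON in 5 of 13 genes of groups 1 to 5 and was lower in 0 of them, with a median of 1.09. In groups 6 to 9 it was lower in 4 of 9 and higher in 0, with a median of -1.67. The anterior Hoxb2 was higher by 4.25 (SE 0.52, adjusted p 5.68e-05), while the posterior Hoxb8 was lower by -2.27 (SE 0.48, adjusted p 0.00328). Hoxc13, of the last group, was at or under 3 counts in every CEpiLC library and at least 13.2-fold higher in SOX2-OFF (1.74, 1.62 and 2.58 TPM), with 1.53, 1.21 and 3.29 TPM in SOX2-ON. Its level in SOX2-ON was thus like that in SOX2-OFF (0.02, adjusted p 0.977).

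**Figure D3:**
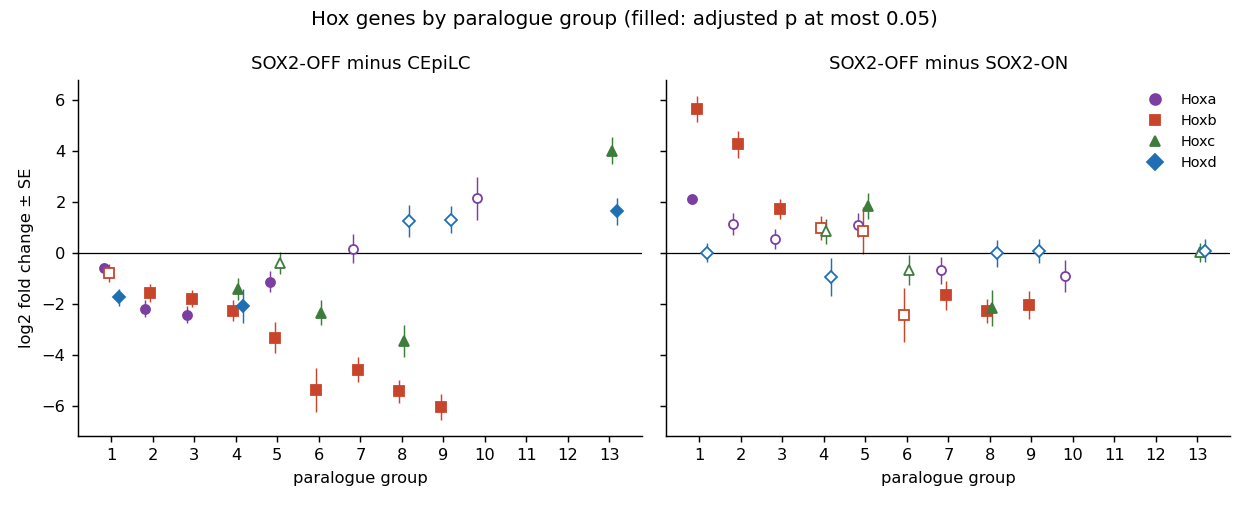
Log2 fold change with its SE of the 25 tested Hox genes by paralogue group, for SOX2-OFF minus CEpiLC (left) and SOX2-OFF minus SOX2-ON (right), with symbols by cluster and filled symbols for called genes. On the left, HoxB values run from -0.78 for Hoxb1 to -6.02 for Hoxb9; on the right, HoxB values are above 0 for groups 1 to 5 and below 0 for groups 6 to 9.

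Early streak and organiser genes moved the other way, though not all of them. Of 22 listed genes 19 were tested, with 8 higher, 4 lower and a median of 0.80. Mixl1, a homeobox gene of mesendoderm, read 24.6, 42.1 and 96.2 TPM in CEpiLC and 157, 120 and 203 in SOX2-OFF. The values did not overlap (log2 fold change 1.61, SE 0.39, adjusted p 0.00386, and 2.30 without CEpiLC replicate 3). Gsc, the goosecoid factor of the organiser, rose by 1.98 (SE 0.40, adjusted p 0.00116) from 1.24, 4.63 and 3.2 to 10.7, 9.22 and 14.1 TPM. Wnt3, the ligand that starts the streak, rose by 1.08 (SE 0.12, adjusted p 1.22e-05) although it lies on chromosome 11, and by 1.62 with the block removed. Mesp1, a factor of the first mesoderm, read 0.23, 0.92 and 5.13 TPM in CEpiLC and 10, 7.37 and 17.2 in SOX2-OFF (2.81, SE 0.75, adjusted p 0.00924). Its call was lost with DESeq2, and its change was 4.45 without CEpiLC replicate 3 and 2.09 without replicate 1. Genes of the node and notochord did not move together. Noto was at or under 3 counts in every SOX2-OFF library and at least 7.31-fold lower, and Chrd fell by 1.19 (SE 0.23, adjusted p 0.000966). Foxa2 had a positive change that was not called (1.08, SE 0.44, adjusted p 0.0579). It was called by limma-voom, without the filter on low counts, under a replicate block and without CEpiLC replicate 2. Within the line, 12 of the 19 genes were higher in SOX2-OFF than in SOX2-ON and 4 lower. Mixl1 exceeded SOX2-ON (3.55, 2.32 and 5.98 TPM) by 5.39 (SE 0.50, adjusted p 5.96e-06) and Eomes (3.14, 3.36 and 3.55 TPM) by 3.82 (SE 0.38, adjusted p 9.64e-06).

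Among Nodal pathway genes the ligand and its co-receptor rose. Of 27 listed genes 24 were tested, with 12 higher and 3 lower. Nodal itself read 7.98, 21.1 and 13.2 TPM in CEpiLC and 65.8, 80.1 and 49.6 in SOX2-OFF (log2 fold change 2.24, SE 0.30, adjusted p 4.83e-05). The co-receptor Tdgf1 (Cripto) read 2.97, 18.9 and 13.9 against 44.6, 50.3 and 46.6 (2.06, SE 0.44, adjusted p 0.00166, and 2.66 without CEpiLC replicate 2). All 3 SOX2-OFF values of both genes were above CEpiLC, and within the line they exceeded SOX2-ON by 2.25 and 1.93 (adjusted p 0.000114 and 0.00453). Pmepa1 (1.63, SE 0.25, adjusted p 0.000142) and Smad7 (1.74, SE 0.21, adjusted p 2.33e-05), inhibitors that the pathway induces, were higher. Lefty1 (0.16, adjusted p 0.838) and Lefty2 (-0.48, adjusted p 0.445, and 0.20 without CEpiLC replicate 3), both targets and antagonists of Nodal, were not called, with overlapping values, and neither were the receptor Acvr2b (0.02) or the DNA-binding partner Foxh1 (0.02). The activin antagonist Fst read 564, 614 and 584 TPM in CEpiLC against 405, 384 and 440 (-0.50, SE 0.12, adjusted p 0.00289).

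Among presomitic and paraxial mesoderm genes some calls were lost without 1 library, while others held. Of 23 listed genes 21 were tested, with 9 lower and 3 higher. The summed level of the list was 373 to 1431 TPM in CEpiLC and 382 to 591 in SOX2-OFF, highest in replicate 3 of both groups. Whether same-numbered libraries shared a batch was not tested. Hes7, a repressor of the segmentation clock on chromosome 11, read 42.1, 32.3 and 115 TPM in CEpiLC and 2.63, 3.57 and 7.07 in SOX2-OFF. Its fall was far larger than the block (-3.86, SE 0.52, adjusted p 5.18e-05, -3.32 with the block removed and -3.10 without CEpiLC replicate 3). Dll3, a Notch ligand of the same tissue, fell by 0.91 (SE 0.25, adjusted p 0.00827). Tbx6, the T-box factor that sets presomitic fate, was called lower (-1.62, adjusted p 0.0287) but its values overlapped, and without CEpiLC replicate 3 it stood at -0.39 and was not called. The Notch ligand Dll1 (-1.57, and -0.55 without that library) and the WNT agonist Rspo3 (-1.04, and -0.45) lost their calls likewise, and all 3 genes lost them also without SOX2-OFF replicate 1 or 2 and in a fit of only the 6 libraries. Under a replicate block all 3 kept their calls. Msgn1 read 64.5, 95 and 364 TPM in CEpiLC and 95.9, 80.3 and 168 in SOX2-OFF (-0.55, adjusted p 0.439, and 0.60 without CEpiLC replicate 3), against 0.27, 1.49 and 0.91 in SOX2-ON. Without CEpiLC replicate 3, 6 members were lower and 4 higher.

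The promoters of 1 risen and 1 fallen mesoderm gene are printed, to show what these start sites hold. They were chosen after their values were seen. The RefSeq windows (GRCm38.p6) span 300 bases, most of them upstream of the start of the gene, and are given 5′ to 3′ with motif matches in capitals. For Mesp1 (chr7:79793541-79793840, minus strand) the capitals mark a TCF/LEF motif and a T-box motif, and for Hes7 (chr11:69120203-69120502, plus strand) a CDX motif.
Mesp1 promoter: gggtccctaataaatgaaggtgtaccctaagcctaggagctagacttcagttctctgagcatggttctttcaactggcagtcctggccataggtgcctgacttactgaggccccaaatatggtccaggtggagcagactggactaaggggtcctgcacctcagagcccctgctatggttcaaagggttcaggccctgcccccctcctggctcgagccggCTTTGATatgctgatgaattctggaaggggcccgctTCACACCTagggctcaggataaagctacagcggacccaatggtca
Hes7 promoter: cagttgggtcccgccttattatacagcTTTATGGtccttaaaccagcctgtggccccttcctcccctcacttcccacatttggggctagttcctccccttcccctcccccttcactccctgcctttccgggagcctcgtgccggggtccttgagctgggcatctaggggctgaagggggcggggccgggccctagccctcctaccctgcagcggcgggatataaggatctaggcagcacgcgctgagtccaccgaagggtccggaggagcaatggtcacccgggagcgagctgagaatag
The motifs searched on both strands were CATTGTT for SOX, CTTTGAT for TCF/LEF, TCACACCT for T-box, AATCCACA for FOXH1, TTTATGG for CDX and AGATAA for GATA, with no overlap in these windows. Of the 14196 tested genes 11004 had a window, and some had several. A T-box motif was in a window of 15 of 595 genes higher by over 1 (2.52%), of 6 of 814 genes lower by over 1 (0.737%) and of 1.05% of all tested genes with a window. A CDX motif was in 10 (1.68%), in 26 (3.19%) and in 1.99%, a SOX motif in 14 (2.35%), in 29 (3.56%) and in 2.35%, and a TCF/LEF motif in 25 (4.2%), in 31 (3.81%) and in 3.02%. GATA motifs were in 8.74%, 7.99% and 7.37%, and FOXH1 motifs in 0.504%, 0.983% and 0.654%. Of all 32851 windows of the genome 1.28% held the T-box, 2.75% the CDX, 3.78% the SOX, 3.73% the TCF/LEF, 11.2% the GATA and 0.855% the FOXH1 motif. These are counts of letters without a test.

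Endoderm genes were mostly higher. Of 24 listed definitive endoderm genes 22 were tested, with 15 higher, 1 lower and a median of 1.26 (14 higher with the blocks removed). Within the line 5 were higher in SOX2-OFF than in SOX2-ON and 5 lower, with a median of 0.39. The summed level of the list was 360 to 469 TPM in CEpiLC and 936 to 1087 in SOX2-OFF, and higher still in SOX2-ON, at 1579 to 1891. Gata6, a zinc finger factor of mesendoderm and primitive endoderm, read 0.67, 0.96 and 1.38 TPM in CEpiLC and 19.5, 22.9 and 21 in SOX2-OFF. Sox17, the SOXF factor of endoderm, read 0.18, 0.64 and 0.4 against 11.7, 16.6 and 15. The gap between groups was many times the spread within either, with log2 fold changes of 4.53 (SE 0.39, adjusted p 1.24e-06) and 5.27 (SE 0.45, adjusted p 1.19e-06, and 5.90 without CEpiLC replicate 2). Hnf4a, an orphan receptor of visceral endoderm and liver, was listed at 0 in every CEpiLC library and read 2.1, 2.26 and 2.95 TPM in SOX2-OFF, at least 30.4-fold higher. Cldn6, a tight junction protein, rose by 1.83 (SE 0.11, adjusted p 1.29e-07). Hhex (0.29, adjusted p 0.18) and Cxcr4 (-0.28, adjusted p 0.648), both used to mark definitive endoderm, were not called, Epcam (0.10, adjusted p 0.364) was not called either, and Kitl was the member called lower (-2.29, SE 0.30, adjusted p 4.16e-05). Cxcr4 stood at -0.92 without SOX2-OFF replicate 3.

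Genes of visceral and parietal endoderm, the extraembryonic lineages, had the largest median of the gene lists. Of 31 listed genes 27 were tested and 24 were higher, 2 lower and 1 not called, with a median of 3.61 (23 higher, 1 lower and 3.18 with the chromosome blocks removed, and 3.71 over the 23 members on other chromosomes). Cubn, the cubilin receptor of endocytosis, read 0.08, 0.14 and 0.22 TPM in CEpiLC and 100, 80.6 and 70.5 in SOX2-OFF (log2 fold change 9.34, SE 0.54, adjusted p 8.83e-08). Its partner Amn (amnionless) rose by 5.95 (SE 0.52), the adaptor Dab2 by 4.59 (SE 0.36) and the co-receptor Lrp2 (megalin) by 4.43 (SE 0.35). Basement membrane genes that parietal endoderm secretes were high in absolute terms. Col4a1 read 52.5, 44.6 and 52.8 TPM in CEpiLC and 519, 697 and 591 in SOX2-OFF, and its neighbour Col4a2 23.5, 19 and 25.6 against 268, 339 and 302. Both lie on chromosome 8, and their changes of 3.61 and 3.75 were 3.03 and 3.18 with the block removed. The laminin chain Lama1 rose by 3.29 (SE 0.42, adjusted p 2.97e-05, and 4.0 without CEpiLC replicate 3), and Lamc1 by 1.69 (SE 0.15, adjusted p 1.66e-06). The members called lower were Stra6, a retinol receptor (-2.12, SE 0.43, and -1.39 without CEpiLC replicate 1), and Rbp4 (-0.98, adjusted p 0.0476), whose call was lost under 10 of the alternatives. Of secreted proteins of this tissue, Ttr, listed at 0 in every CEpiLC library, was called higher at a low level (0.76, 2.96 and 1.77 TPM, at least 5.59-fold), the apolipoprotein Apob rose by 3.99 (SE 0.59, adjusted p 0.000101; 4.65 without CEpiLC replicate 2) and Apoe by 1.10 (SE 0.24, adjusted p 0.00206), and Apoa1 and Afp were too low to be tested.

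These genes were high in SOX2-ON as well. The summed level of the list was 754 to 853 TPM in CEpiLC and 762 to 821 in EpiLC, against 3202 to 3931 in SOX2-OFF and 1521 to 3556 in SOX2-ON, where replicate 3 was highest. Within the line 11 members were higher in SOX2-OFF and 0 lower, with a median of 0.69. Cubn read 24, 34.2 and 77.4 TPM in SOX2-ON, and SOX2-OFF exceeded it by 0.95 on the log2 scale (SE 0.31, adjusted p 0.0349). Gata6, in contrast, was lower in SOX2-OFF than in SOX2-ON (27.9, 33.2 and 69.7 TPM) by -0.98 (SE 0.28, adjusted p 0.0168), and Sox17 was not called (0.54, SE 0.31, adjusted p 0.213). The effect of CHIR99021 in the SOX2 TetON line was not measured, since no such culture without it was analysed here.

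**Figure D4:**
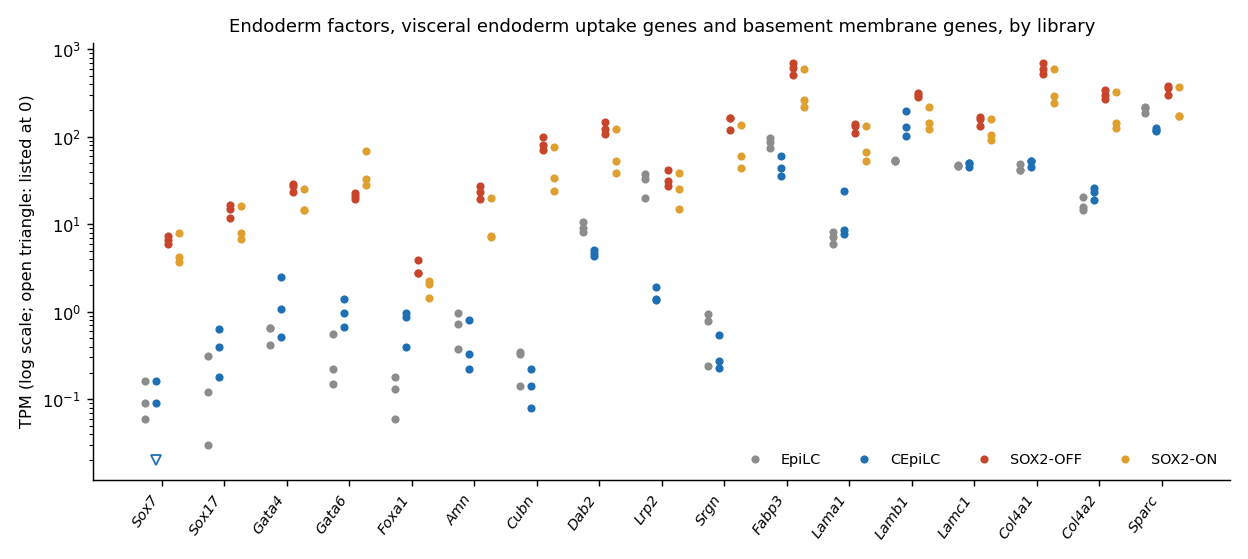
TPM on a log axis of 17 endoderm factors, uptake genes and basement membrane genes in each library, by group, with an open triangle for Sox7 in the CEpiLC library listed at 0. SOX2-OFF (red) and SOX2-ON (yellow) lie above CEpiLC (blue) in most genes, and in most genes 1 SOX2-ON library (replicate 3 in Cubn and Gata6) stands above the others of its group.

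By the rule on size, the 10 largest rises without overlap at a mean of at least 10 TPM included further secreted and surface proteins. Srgn, the proteoglycan serglycin, read 0.54, 0.27 and 0.23 TPM in CEpiLC and 119, 165 and 163 in SOX2-OFF (log2 fold change 8.52, SE 0.57, adjusted p 2.23e-07, and 9.12 without CEpiLC replicate 1). Spink1, a trypsin inhibitor, was at or under 3 counts in every CEpiLC library and at least 143-fold higher, reading 164, 216 and 265 TPM. The floor was 3 counts in each CEpiLC library. Against the same floor the FGF co-receptor Klb was at least 111-fold higher, Habp2 118-fold, Hkdc1 103-fold, Serpinb6c 65.6-fold, Nostrin 60.5-fold and Glipr1 60.0-fold. Cubn and Tex13b made up the 10. Tex13b, a germline gene on chromosome X, was listed at 0 in all CEpiLC libraries and read 32, 34.3 and 44.2 TPM in SOX2-OFF, at least 210-fold higher, with 29, 40.1 and 37.2 in SOX2-ON.

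The 10 largest falls held 4 HoxB genes (Hoxb6 to Hoxb9), the Hox antisense RNA Hoxaas3, Hes3, the receptor Gfra3, Pla2g1b and 2 genes of chromosome X. Hoxb6 (-5.37, and -6.14 without SOX2-OFF replicate 3) and Hoxb7 (-4.57, and -5.39) were more sensitive to 1 library than Hoxb9. Likewise Gfra3 stood at -4.37 (-5.0 without that library) and Hoxaas3 at -4.75 (-6.33 without it and -4.03 without CEpiLC replicate 3). Pla2g1b, a secreted phospholipase, read 137, 113 and 117 TPM in CEpiLC and 1.63, 1.1 and 0.5 in SOX2-OFF (-6.73, SE 0.37, adjusted p 6.66e-08, and -7.31 without SOX2-OFF replicate 1). It read 90.3 to 94.3 TPM in EpiLC and 2.72 to 9.93 in SOX2-ON. Usp26, a testis deubiquitinase, was at or under 3 counts in every SOX2-OFF library and at least 233-fold lower than the 22.6, 26.3 and 18.8 TPM of CEpiLC, with 0.03 to 0.16 TPM in SOX2-ON. Xlr3b fell by 6.89 (SE 0.43, and -8.15 without SOX2-OFF replicate 1), but has near-identical copies between which reads may be split, so its value is uncertain.

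Among abundant genes, those of smallest p value were often on the shifted chromosomes. Ifitm3, an interferon-induced membrane protein of chromosome 7, read 49.6, 63.1 and 50.3 TPM in CEpiLC and 269, 279 and 219 in SOX2-OFF (log2 fold change 2.27, SE 0.11, adjusted p 2.27e-08), and exceeded SOX2-ON by 1.54. Lhpp, a phosphatase of chromosome 7, fell by 2.19 (SE 0.12, adjusted p 6.66e-08) from 311, 253 and 245 to 58.8, 59.2 and 57.5 TPM. The rest included Ddx39 and Tcf25 of chromosome 8 and Fkbp9 of chromosome 6, whose rises of 1.25, 0.91 and 1.09 were 0.67, 0.33 and 0.55 with the block removed. Nipsnap1 and Psmb6 of chromosome 11, lower by -1.27 and -0.82, stood at -0.73 and -0.28.

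Trophoblast genes were mostly higher, at low levels apart from the keratins. Of 18 listed genes 16 were tested, with 10 higher and 1 lower (Cdx2), and several members (Eomes, Hand1 and the keratins) also mark other tissues. Krt8 read 137, 214 and 191 TPM in CEpiLC and 580, 612 and 501 in SOX2-OFF (log2 fold change 1.66, SE 0.21, adjusted p 3.24e-05), and its partner Krt18 rose by 1.58 (SE 0.20, adjusted p 3.4e-05). Both exceeded SOX2-ON, by 1.58 and 1.71. Gata2 rose by 1.76 (SE 0.31, adjusted p 0.000448) to 2.65 to 4.45 TPM. Tfap2c (0.49, adjusted p 0.186) was not called, except without SOX2-OFF replicate 3, and the defining factor Elf5 was too low to be tested.

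Cardiac and lateral mesoderm genes were called in both directions. Of 26 listed genes 21 were tested, with 8 higher and 6 lower (7 and 5 with the blocks removed). Among all genes tested 23.6% were higher and 24.9% lower. Isl1, a LIM factor of the second heart field, read 0.6, 1.32 and 2.23 TPM in CEpiLC and 5.15, 4.85 and 8.28 in SOX2-OFF (log2 fold change 2.27, SE 0.46, adjusted p 0.00115). Hand1, a bHLH factor of lateral and extraembryonic mesoderm, rose by 1.56 (SE 0.34, adjusted p 0.00206). Both were also above SOX2-ON, by 3.77 and 2.73. Tal1, a bHLH factor of blood and vessels, read 1.19, 2.02 and 0.43 TPM in CEpiLC and 0.11, 0.1 and 0 in SOX2-OFF (-3.93, SE 0.68, adjusted p 0.000359), and Mef2c was lower by -1.78 (SE 0.20, adjusted p 1.24e-05).

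WNT ligands and feedback genes are read with their chromosomes in view, since 8 of 16 tested ligands and 11 of 23 tested feedback genes lie on chromosomes 6, 8 or 11. Ligands were higher in 6 and lower in 3, or 7 and 4 with the blocks removed. Besides the falls of Wnt3a and Wnt8a, Wnt7b rose by 3.13 (SE 0.45, adjusted p 7.56e-05, and 2.52 without CEpiLC replicate 1) and Wnt11 by 1.86 (SE 0.29, adjusted p 0.000152), both at under 4 TPM. Of the WNT feedback and inhibitor genes 5 were higher and 10 lower, or 5 and 7 with the blocks removed, and 6 were lower without SOX2-OFF replicate 2. Axin2, the general WNT feedback gene on chromosome 11, was lower by -0.53 (SE 0.15, adjusted p 0.00871) but stood at 0.01 with the block removed (adjusted p 0.965), and its call was also lost without CEpiLC replicate 1. Notum, a secreted enzyme that inactivates WNT, read 104, 63.9 and 39 TPM in CEpiLC and 14.6, 14.2 and 12.3 in SOX2-OFF (-2.32, SE 0.26, adjusted p 1.13e-05, and -1.78 with the block removed). Dkk1, a secreted antagonist of anterior tissue, moved against it, from 2.45, 2.87 and 10.9 to 41.5, 44.3 and 60.3 TPM (3.35, SE 0.43, adjusted p 3.47e-05, and 4.22 without CEpiLC replicate 3). The antagonists Sfrp1 and Sfrp2 fell by 1.43 and 1.52 (SE 0.21 and 0.18).

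FGF ligands were mostly lower, 7 of 11 tested (15 listed), with 2 higher and a median of -1.22 (6 lower with the blocks removed). Fgf8, the ligand of streak and tail bud, read 36.8, 67.3 and 82.2 TPM in CEpiLC and 23.5, 34.1 and 21.3 in SOX2-OFF (log2 fold change -1.22, SE 0.27, adjusted p 0.00233), and its relative Fgf17 fell by 2.00 (SE 0.28, adjusted p 6.55e-05). Fgf4, the ligand of pluripotent epiblast, fell by 2.53 (SE 0.43, adjusted p 0.000302). Fgf5, a gene of primed epiblast, rose by 1.72 (SE 0.32, adjusted p 0.000688, and 2.51 without CEpiLC replicate 2), and stayed far below its 74.2 to 83 TPM in EpiLC. Among the 16 feedback genes of the FGF-ERK pathway 5 were higher and 3 lower, or 2 lower with the blocks removed and 1 lower without SOX2-OFF replicate 2 or 3. The shares over all genes tested were 23.6% higher and 24.9% lower. Dusp6, a phosphatase that ERK induces, read 80, 97.7 and 146 TPM in CEpiLC and 180, 156 and 210 in SOX2-OFF (0.78, SE 0.21, adjusted p 0.00696).

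Retinoic acid genes fell in 10 of 17 tested members (20 listed) and rose in 1, or 8 and 1 with the blocks removed. Crabp2, a carrier of retinoic acid, read 205, 225 and 271 TPM in CEpiLC and 71.7, 70.3 and 60.3 in SOX2-OFF (log2 fold change -1.76, SE 0.14, adjusted p 6.68e-07). The synthetic enzyme Aldh1a2 read 11.2, 16.3 and 104 against 4.94, 4.98 and 10.5 (-2.68, SE 0.68, adjusted p 0.00554), with -1.01 without CEpiLC replicate 3 and no call by limma-voom. The member that rose was Cyp26a1, the enzyme that degrades retinoic acid, from 1.01, 2.45 and 10.7 to 27.7, 29.8 and 54 TPM (3.22, SE 0.65, adjusted p 0.00111, with 4.52 without CEpiLC replicate 3 and 2.63 without replicate 1). It read 0.51, 0.41 and 1.18 TPM in SOX2-ON.

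BMP pathway genes gave 9 higher and 6 lower of 25 tested (26 listed), or 8 and 6 with the blocks removed. The shares over all genes tested were 23.6% higher and 24.9% lower. The ligands Bmp2, Bmp6 and Bmp7 rose by 1.62, 2.96 and 1.12 (SE 0.32, 0.37 and 0.13), whereas Bmp4 was not called (0.22, SE 0.35, adjusted p 0.633). The target genes did not move together. Id2 rose by 1.89 (SE 0.30, adjusted p 0.000183), Id3 fell by 1.48 (SE 0.18, adjusted p 2.47e-05) and Id1 was not called (-0.56, SE 0.32, adjusted p 0.169). Msx2, a homeobox target, read 0.34, 0.51 and 0.79 TPM in CEpiLC and 4.69, 6.11 and 6.37 in SOX2-OFF (3.53, SE 0.41, adjusted p 1.33e-05), and 4.8 to 12.3 in SOX2-ON.

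Naive pluripotency genes were higher in 10 and lower in 3 of 19 tested (20 listed), with a median of 1.03 (9 higher with the blocks removed). Dppa5a, an RNA-binding protein of pluripotent cells, read 38.9, 40.1 and 51.7 TPM in CEpiLC and 237, 282 and 212 in SOX2-OFF (log2 fold change 2.55, SE 0.13, adjusted p 3.73e-08), with 239, 245 and 244 in SOX2-ON. Klf4 rose by 2.15 (SE 0.19, adjusted p 1.65e-06), Zfp42 by 1.82 (SE 0.12, adjusted p 2.71e-07; 1.24 with the block of chromosome 8 removed) and Esrrb by 1.97 (SE 0.33, adjusted p 0.000304). Each of these 4 genes had 3 SOX2-OFF values above 3 CEpiLC values. Tbx3, which also marks primitive endoderm, rose by 5.28 (SE 0.38, adjusted p 4.08e-07). Nanog, on chromosome 6, was called (1.65, SE 0.47, adjusted p 0.0104, and 2.5 without CEpiLC replicate 2) but not with the block removed (1.10, adjusted p 0.0737). The rise was not shared by all: the 3 members called lower each fell by over 1 (log2). The pluripotency factor Klf2 had a negative change that was not called (-1.06, adjusted p 0.0617). It was called lower with the block removed, with DESeq2, without the filter on low counts and without CEpiLC replicate 3. Tfcp2l1 was not called (-0.09, adjusted p 0.701). Nr5a2 (0.34 to 0.41 TPM) and Dppa3 (2.38 to 9.17 TPM) were not called in SOX2-OFF (adjusted p 0.102 and 0.126), while SOX2-ON held 23.6 to 32.5 and 105 to 146 TPM, and Dppa3 was called under a replicate block and without SOX2-OFF replicate 3. Within the line 0 members were higher and 12 lower in SOX2-OFF than in SOX2-ON. Of 15 general pluripotency genes 6 were higher, 3 of them by over 1 (log2), and 3 were lower, 1 of them by over 1. Of these Pou5f1 was not called (831, 993 and 705 against 887, 897 and 768 TPM, 0.04, SE 0.10, adjusted p 0.779) and Lin28a fell by 0.97 (SE 0.09, adjusted p 1.96e-06).

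Early neural genes were lower in 6 and higher in 2 of 16 tested (22 listed; 7 lower with the blocks removed), with a summed level of 161 to 198 TPM in CEpiLC and 118 to 130 in SOX2-OFF. Pax6 stood at or under 0.08 TPM in both groups. Of cadherin and EMT genes 13 of 26 were higher and 4 lower, or 11 and 4 with the blocks removed, and 2 were lower without CEpiLC replicate 1 or SOX2-OFF replicate 3. Fn1, fibronectin, rose by 1.22 (SE 0.32, adjusted p 0.00615, and 1.86 without CEpiLC replicate 3), whereas Cdh2 (-0.12, adjusted p 0.706) and Snai1 (0.27, adjusted p 0.627) were not called. Snai1 was called without CEpiLC replicate 3, at 1.00. Cdh1, on chromosome 8, was higher by 0.78 and not called with the block removed (0.20, adjusted p 0.125). Of 38 tested collagen, laminin, integrin and matrix genes 17 were higher and 6 lower (7 lower with the blocks removed and 12 without SOX2-OFF replicate 1). The pair Col4a5 and Col4a6 on chromosome X fell, with log2 fold changes of -2.16 (SE 0.19) and -3.12 (SE 0.22), while Col4a1 and Col4a2 rose.

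**Figure D5:**
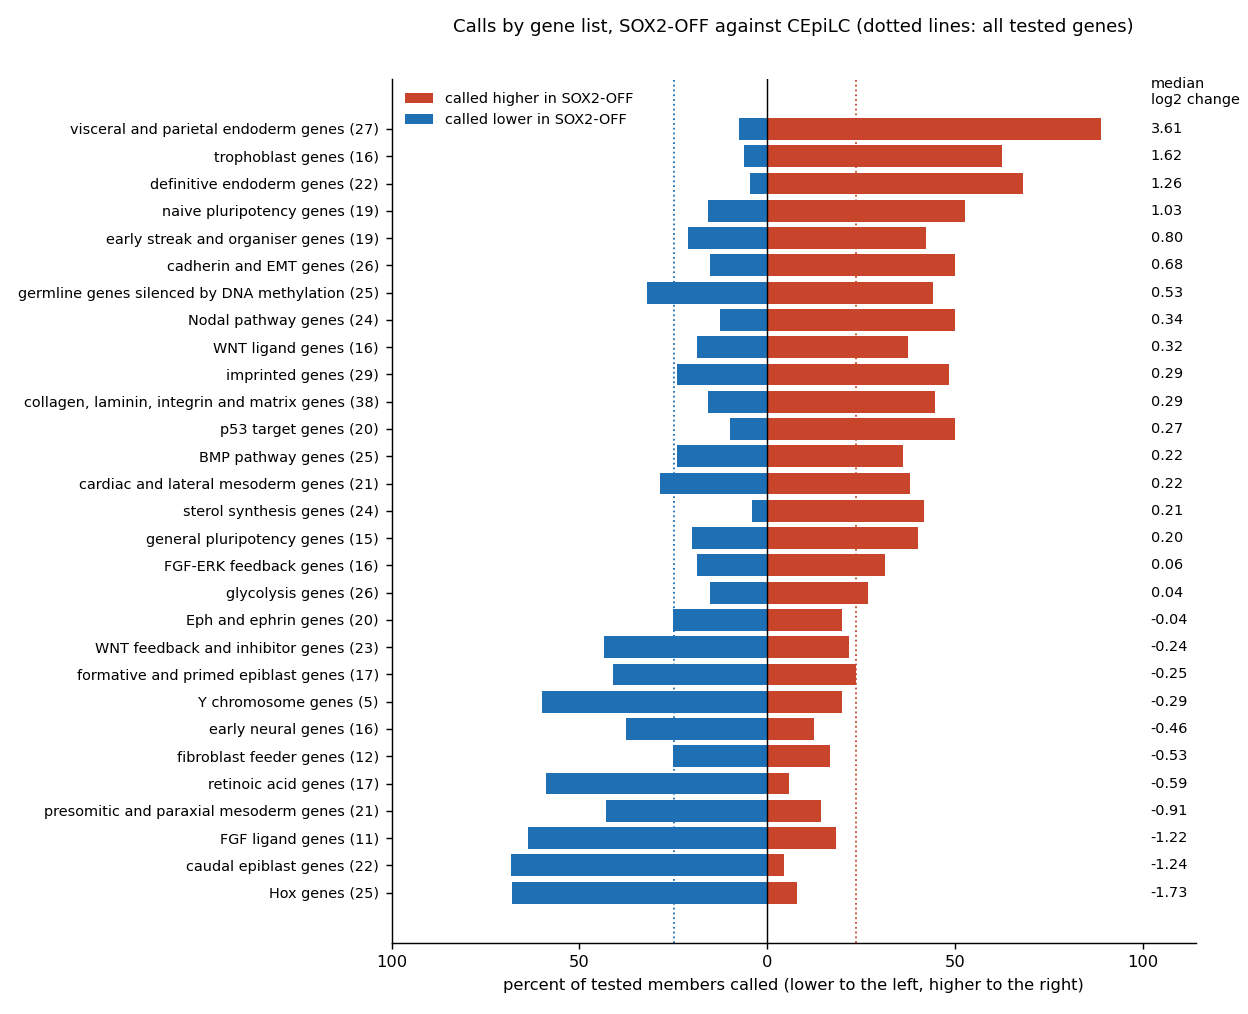
Percent of the tested members of each gene list called higher (right, red) or lower (left, blue) in SOX2-OFF than in CEpiLC, ordered by the median log2 fold change printed at the right, with the number tested in brackets. Dotted lines mark the 23.6% and 24.9% of all tested genes; visceral and parietal endoderm genes stand at the top and Hox genes at the bottom.

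Imprinted and germline genes, which cultured stem cell lines can carry in different states, were also measured. The imprinted growth regulator Grb10, on chromosome 11, read 140, 139 and 122 TPM in CEpiLC and 16, 9.51 and 12.3 in SOX2-OFF (log2 fold change -3.40, SE 0.15, adjusted p 2.14e-08, and -2.86 with the block removed), and the imprinted non-coding RNA H19 1.28, 1.09 and 5.05 against 131, 86.1 and 33.6 (5.39, SE 0.55, adjusted p 5.17e-06, and 6.14 without CEpiLC replicate 3). Grb10 read 23.4 to 28.4 TPM in SOX2-ON and 144 to 172 in EpiLC, and H19 read 123 to 184 and 2.21 to 5.23. The cell cycle inhibitor Cdkn1c fell by 4.21 (SE 0.18, adjusted p 2.14e-08). Of 29 tested imprinted genes (32 listed) 14 were higher and 7 lower (13 and 8 with the blocks removed), and of 25 tested germline genes silenced by DNA methylation (35 listed) 11 were higher and 8 lower. Feeder genes summed to 132 to 191 TPM in CEpiLC and 44.7 to 113 in SOX2-OFF, with 2 of 12 members higher and 3 lower (4 lower with the blocks removed and 6 without SOX2-OFF replicate 1). Thy1 fell by 2.33 (SE 0.31, adjusted p 4.44e-05) and Dcn rose by 1.21 (SE 0.31, adjusted p 0.00621). Neither marker was at 0 in any of the 6 libraries, and the part of feeder RNA in the results above was not tested. Y chromosome genes summed to 77.6 to 110 TPM in CEpiLC and 79.3 to 92.6 in SOX2-OFF, with 1 of 5 higher and 3 lower. The sums overlapped, yet Kdm5d (-3.88, adjusted p 0.00179) and Zfy1 (-2.93, adjusted p 0.00479) fell far. Uty was the member called higher (0.55, adjusted p 0.000895). Glycolysis genes gave 7 higher and 4 lower of 26, and 3 and 4 with the blocks removed. Slc2a1, a glucose transporter, fell by 0.98 (SE 0.09, adjusted p 3.1e-06). Another, Slc2a3, rose by 0.98 (adjusted p 0.000932) but was not called with the block removed. Of 20 p53 targets 10 were higher and 2 lower, with a median of 0.27 (11 and 1 with the blocks removed), and of 24 sterol synthesis genes 10 were higher and 1 lower (6 higher without CEpiLC replicate 2 or SOX2-OFF replicate 3). Of 20 Eph and ephrin genes 4 were higher and 5 lower (3 and 7 with the blocks removed), and of 17 tested formative and primed epiblast genes 4 were higher (2 without CEpiLC replicate 1) and 7 lower. Beside all counts of this paragraph stand the 23.6% higher and 24.9% lower of all genes tested.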

How the data were processed

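RNA of 12 cultures (4 groups of 3) was sequenced with stranded mRNA libraries. The authors trimmed reads with cutadapt 1.16, aligned them with STAR 2.5.2a and quantified them with RSEM 1.3.0 against mm10 RefSeq genes, and deposited expected counts and TPM per gene. Expected counts are estimates and were rounded to whole numbers before testing. TPM, scaled by the authors for gene length and library, are printed as levels and were not tested. The study's own comparisons used DESeq2 1.16.1.

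Counts were tested with edgeR 4.0.16 (R 4.3.3): TMM scaling, the default filter on low counts, 1 quasi-likelihood model of all 12 samples without covariates, and Benjamini-Hochberg adjustment over 14196 genes. SEs were derived as the absolute log2 fold change over the square root of the quasi-likelihood F statistic, and so are approximate. Where no library of a group exceeded 3 counts, a bound against that floor per library replaced the fold change. Library totals ranged from 10408252 to 27337740 among the 6 libraries compared, and counting error limits genes of a few counts. Alternatives were RLE scaling, library size alone, other filters, DESeq2 1.42.0, limma-voom (limma 3.58.1), only 6 samples, a replicate block, a threshold of 0.01, removal of the median change of chromosomes 6, 8 and 11, and leaving out each library. On simulated counts for SOX2-OFF against CEpiLC, with 13731 genes tested, 97 of 100 genes changed by 1 (log2) were called. Of genes changed by 2, 99 of 100 were called, and of 13531 unchanged genes 6. The simulation gave every gene the same spread and changed only genes above a minimum count. It held no chromosome block and no outlying library, so performance on genes of low or variable counts was not measured.

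The gene lists were chosen with earlier results of these data known, so their counts are descriptions. Named genes were Sox2, Sox3, Hprt, Eomes, Gata6, Hoxb9, members of the lists, the 10 largest changes per direction without overlap and with a mean of at least 10 TPM, and the 5 smallest p values per direction at a mean of at least 100 TPM. Promoters came from RefSeq, GRCm38.p6, and the Sox2 coding sequence and its position from GENCODE.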

Additional observations from a re-analysis of the deposited data

How the results depend on the processing

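Of 6885 genes called, alternatives gave 5008 (with a threshold of 0.01) to 7285, and leaving out 1 library gave 5947 to 6650. Genes higher by over 1 (log2) numbered 701 to 912 and lower 949 to 1238. Within the SOX2 TetON line 4091 genes were called, 2437 with a threshold of 0.01, and 3054 to 3923 without 1 library. The labels do not state whether same-numbered samples were made together, and the main fit did not pair them. Deviations of same-numbered SOX2-OFF and CEpiLC libraries correlated across genes with r of 0.0556, 0.273 and 0.272, and each correlated best with its own number. For SOX2-OFF and SOX2-ON r was -0.113, 0.147 and 0.0748, and only replicate 2 correlated best with its own number. With a replicate block 7285 genes were called (4625 within the line). The median change of all genes was -0.01, -0.01 by RLE and -0.06 by library size alone, where 2925 genes were higher and 3994 lower. Removal of the chromosome medians left 2834 higher and 3136 lower, and turned Axin2 from -0.53 to 0.0093.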
